A study of Homo sapiens with 36 samples.

Results

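The genes described here each had a probe that was not above array background in solvent-treated DU145, PC-3 or 22Rv1 prostate cancer cells and was above it after the histone deacetylase inhibitor vorinostat. The genes were chosen by their detection p-values: a gene was taken when one of its probes had a detection p-value above 0.05 on all 18 solvent arrays of the 3 lines and below 0.01 on all 6 vorinostat arrays of at least 1 line. The detection p-value sets the signal of a probe against the negative control probes of the same array, so a value above 0.05 is called silent here and a value below 0.01 is called on. Where several probes of a gene met the rule, the one with the highest mean signal stood for the gene. Of 20046 genes with a probe that names 1 gene, 27 met the rule, through 29 probes. Because the rule used vorinostat against solvent, that comparison is given for these 27 genes as a description, with no test.

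Total RNA of the 3 cell lines was hybridised to Illumina bead arrays, 3 arrays for each of 12 groups and 36 in all. Within each line the groups crossed normoxia or hypoxia (0.2% oxygen, 24 h) with solvent or vorinostat (1 µM, 24 h); the titles say solvent where the sample characteristics say untreated, and no other agent or genetic change is named for any group. The study asked which expression changes go with the radiosensitisation by vorinostat that its design text reports for DU145 and not for PC-3 and 22Rv1, and the RNA was taken before any irradiation. The labels do not say whether the 3 arrays of a group came from separate cultures, so p-values measure only the spread between these arrays, which may be technical.

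Histone deacetylases remove acetyl groups from the lysines of histone tails and of other proteins, and at genes they work within repressor complexes such as NuRD, Sin3, CoREST and NCoR. Vorinostat binds the zinc in the catalytic pocket of these enzymes, so acetylation accumulates. Genes that a cell type keeps off by deacetylation, among them genes of other tissues, are a known class of genes that such drugs can turn on in tumour cells.

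Between 14242 and 16900 probes had a detection p-value below 0.01 on an array (30.1% to 35.7% of 47323), and replicate arrays correlated at 0.983 to 0.995 on the normalized log2 scale. The epithelial markers KRT8, KRT18, EPCAM and CDH1 were on in all 12 arrays of every line. So was the mesenchymal marker VIM, while the mesenchymal marker CDH2 was on in 12 arrays of PC-3, 10 of 22Rv1 and 0 of DU145. Of the prostate luminal genes, KLK2 and FOLH1 were on in all 12 arrays of 22Rv1 and on none of DU145 or PC-3, TMPRSS2 was on in all 12 arrays of both 22Rv1 and PC-3, and KLK3, which encodes prostate-specific antigen, was on in no array of any line. Of 12 fibroblast, endothelial and leukocyte markers, 5 (PDGFRB, VWF, CDH5, PTPRC and CD3E) were on in no array. The other 7 were on in some, most often in PC-3: COL1A1 and PECAM1 in 12 of its 12 arrays, LUM in 10, CD14 in 9, COL3A1 in 7 and DCN in 1. In DU145 CD14 was on in 6 and COL1A1 in 5 arrays, and in 22Rv1 CD14 in 6, LUM in 5, COL1A1 in 4 and LYZ in 2; their part in the results was not tested.

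The genes split by line, and PC-3 had 1 of them. In DU145 13 genes met the rule, in PC-3 1, and in 22Rv1 16. The background of these counts is the 9227 single-gene probes that were silent on all 18 solvent arrays, of which 0.152% were on in all 6 vorinostat arrays of DU145, 0.0108% in those of PC-3 and 0.184% in those of 22Rv1. Meeting the rule in DU145 alone were RNU4-1, CALB2, NEFM, RSPH14, ENPP2, ARMC12, PPP4R4, CLDN10, PALM2, KLRC2 and OOEP, which are 11 genes. Meeting it in 22Rv1 alone were TCIM, CCDC184, COMP, GNAT1, PPP1R1A, BMF, SUSD4, DNAI7, ABCC11, GSTA3, COL9A2, CALCA and CLUL1, which are 13 genes. CCM2L and TSPAN7 met the rule in both DU145 and 22Rv1, and RTBDN met it in PC-3 and 22Rv1. There were 0 genes that met it in all 3 lines. In DU145, PC-3 and 22Rv1 the counts were 28, 6 and 41 with on set below 0.05 and 6, 0 and 4 with below 0.001. With silent set above 0.01 they were 36, 7 and 68. From the normoxia arrays alone they were 25, 14 and 56, and from the hypoxia arrays alone 31, 2 and 40. PC-3 had the fewest in each. With on set below 0.05, 1 gene met the rule in all 3 lines. The arrays measured bulk RNA, so more cells with a transcript and more transcript per cell cannot be told apart.

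The opposite pattern was not found: of 8897 probes silent on all 18 vorinostat arrays, 0 were on in all 6 solvent arrays of a line. When each line was set against its own solvent arrays only, 61 genes of DU145, 3 of PC-3 and 34 of 22Rv1 went from silent to on, while 1, 3 and 2 genes went from on to silent. Those of the 61 genes of DU145 that are not among its 13 had a detection p-value of 0.05 or less on a solvent array of another line.

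**Figure D1:**
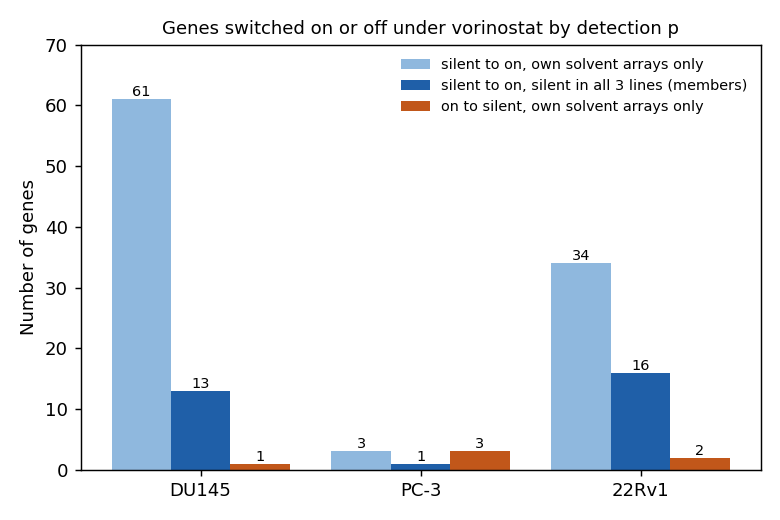
Number of genes (vertical axis) that went from silent to on or from on to silent under vorinostat in each line (horizontal axis). Light bars use the 6 solvent arrays of that line, dark bars require silence on the solvent arrays of all 3 lines (13, 1 and 16 genes), and orange bars show the opposite direction (1, 3 and 2 genes).

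The 27 genes lay on 16 chromosomes of the RefSeq assembly GRCh38.p14, and 26 of them are annotated as protein-coding. Chromosome 12 held 5 of them (18.5%, against 5.14% of all genes on the array and 4.84% of genes with a silent probe): CCDC184, DNAI7 and PPP1R1A of the 22Rv1 set, and KLRC2 and RNU4-1 of the DU145 set. Chromosomes 6 and 8 held 3 each, namely ARMC12, GSTA3 and OOEP, and ENPP2, NEFM and TCIM. Chromosome 1 held COL9A2 and SUSD4, chromosome 16 held ABCC11 and CALB2, and chromosome 19 held COMP and RTBDN. The other 10 were alone on their chromosomes, and TSPAN7 was the one on the X chromosome. No 2 of the genes lay within 500000 bases of each other, and the closest pair, COMP and RTBDN, lay 5955877 bases apart.

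RefSeq start-site windows of 300 bases (250 before the annotated start and 50 after it) were at hand for 16 of the 27 genes, and 5 of them are printed because they show the range of CG content among the genes and the one gene shared by PC-3 and 22Rv1. Bases are in lower case, 5′ to 3′ on the strand of the gene, and each CG dinucleotide, the site of DNA methylation in vertebrates, is in capitals. SUSD4 (chr1:223364127-223364426, minus strand), which encodes a complement-regulating membrane protein, had the most CG sites of the 16, BMF (chr15:40108830-40109129, minus strand) encodes a pro-apoptotic BH3-only protein, and RTBDN (chr19:12835379-12835678, minus strand) encodes the riboflavin-binding protein retbindin of the retina. GSTA3 (chr6:52909649-52909948, minus strand), a glutathione transferase with a role in steroid synthesis, and ABCC11 (chr16:48247490-48247789, minus strand), a transporter of apocrine glands, had the fewest.
SUSD4: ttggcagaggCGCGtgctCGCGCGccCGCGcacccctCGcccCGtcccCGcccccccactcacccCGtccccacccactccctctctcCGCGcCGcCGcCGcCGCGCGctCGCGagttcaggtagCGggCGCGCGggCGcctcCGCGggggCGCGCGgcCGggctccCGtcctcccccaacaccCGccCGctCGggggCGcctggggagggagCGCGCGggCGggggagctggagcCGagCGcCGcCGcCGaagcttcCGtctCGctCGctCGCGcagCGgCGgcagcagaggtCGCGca
BMF: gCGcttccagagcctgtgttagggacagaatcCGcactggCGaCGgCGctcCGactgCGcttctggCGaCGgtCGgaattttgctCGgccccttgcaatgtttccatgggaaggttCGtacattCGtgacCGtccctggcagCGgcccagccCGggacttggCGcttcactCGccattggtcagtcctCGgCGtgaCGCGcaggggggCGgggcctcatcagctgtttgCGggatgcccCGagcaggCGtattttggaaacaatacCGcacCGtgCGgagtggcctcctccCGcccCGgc
RTBDN: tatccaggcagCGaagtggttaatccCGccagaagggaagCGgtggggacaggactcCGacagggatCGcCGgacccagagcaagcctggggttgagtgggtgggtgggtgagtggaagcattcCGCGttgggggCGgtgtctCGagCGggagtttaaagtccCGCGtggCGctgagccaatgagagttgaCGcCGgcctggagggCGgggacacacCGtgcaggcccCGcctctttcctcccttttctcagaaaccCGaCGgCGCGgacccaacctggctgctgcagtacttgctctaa
GSTA3: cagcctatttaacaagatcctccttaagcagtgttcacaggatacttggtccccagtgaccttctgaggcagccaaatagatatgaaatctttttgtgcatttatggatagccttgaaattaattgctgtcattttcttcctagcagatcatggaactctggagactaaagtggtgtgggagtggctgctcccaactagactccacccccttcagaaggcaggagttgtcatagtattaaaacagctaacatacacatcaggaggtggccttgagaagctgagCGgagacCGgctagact
ABCC11: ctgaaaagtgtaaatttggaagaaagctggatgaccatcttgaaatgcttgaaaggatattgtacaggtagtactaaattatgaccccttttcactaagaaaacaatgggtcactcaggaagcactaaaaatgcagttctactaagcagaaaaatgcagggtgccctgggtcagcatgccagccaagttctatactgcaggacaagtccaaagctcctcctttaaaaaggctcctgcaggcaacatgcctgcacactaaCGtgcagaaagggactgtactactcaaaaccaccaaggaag

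SUSD4 held 55 CG sites in its window, BMF 31, RTBDN 23, GSTA3 2 and ABCC11 1. Relative to the number expected from the C and G content of the window, this was a ratio of 1.12 for SUSD4, 0.98 for BMF, 0.77 for RTBDN, 0.13 for GSTA3 and 0.07 for ABCC11. The median ratio over the 16 windows was 0.775, beside 0.329 over 2477 genes silent on all 36 arrays, 0.835 over 9898 genes above background on at least 3 arrays and 0.766 over all 15033 array genes with a window. A ratio of at least 0.6 was found in 12 of the 16 windows (75.0%), in 32.1% of the genes silent throughout and in 81.3% of those above background. The 4 windows under that ratio belong to ABCC11, GSTA3, GNAT1 and CALCA, all on in 22Rv1, as were 11 of the 16 genes with a window. A difference between the lines was not tested. These are counts over the genes that have a window, and 11 of the 27 have none here.

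**Figure D2:**
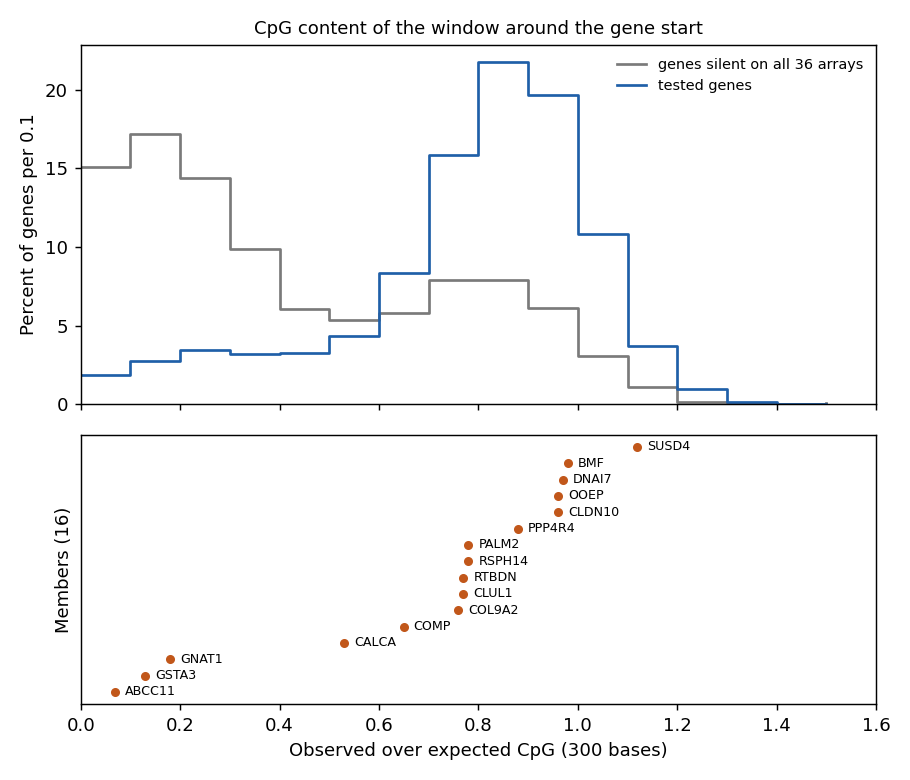
Observed over expected CpG in the 300-base window at the gene start (horizontal axis, a ratio). The upper panel gives the percent of genes per 0.1 of the ratio for genes silent on all 36 arrays and for genes above background on at least 3 arrays, and the lower panel gives 1 point for each of the 16 genes with a window, of which 12 lie at 0.6 or above.

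Short motifs were searched on both strands of the same windows. GGGCGG, the core of the GC box bound by Sp1-type factors and itself holding a CG site, was present in 10 of 16 windows (62.5%, beside 58.6% of all windows and 33.6% of those of silent genes). CCAAT was present in 7 (43.8%, beside 36.5% of all windows). TATAAA was in 0 of 16 windows and in 9.53% of all windows, and CACGTG was in 0 of 16 and in 8.89% of all. A match says only that the letters occur in the window.

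Levels are given below on the log2 scale after background correction and quantile normalization over the 36 arrays, first the 18 solvent arrays as lowest, median and highest value, then the vorinostat arrays one by one. The lowest signal of a probe that was on lay between 5.15 and 5.58 on these arrays, so the solvent values of these genes only bound a level. A fold is therefore given as "at least", the mean of the 6 vorinostat arrays of a line over that lowest signal in its 6 solvent arrays. Levels of different genes are not compared, since each probe has its own response.

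In DU145, the lower bounds ran from at least 1.16-fold (ARMC12) to at least 3.34-fold (RNU4-1). RNU4-1 (chr12:120293093-120293237) is a gene for the U4 small nuclear RNA of the spliceosome and the one gene here that is not protein-coding. It lay at 4.31, 4.53 and 4.84 on the solvent arrays, at 6.32, 6.22 and 7.52 in DU145 with vorinostat in normoxia, and at 7.35, 7.52 and 8.18 in hypoxia. Its values in DU145 were at least 3.34-fold above background, and none of the 12 vorinostat arrays of PC-3 and 22Rv1 was on, where the highest value was 4.85. RNU4-1 has near-identical copies, and signal from those cannot be told apart from its own. Its solvent values say only that this probe was not above background, not that U4 RNA was absent from the cells.

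CALB2, which encodes the neuronal calcium-binding protein calretinin, lay at 4.36, 4.51 and 4.67 with solvent, and at 6.75, 6.56 and 7.59 in normoxia and 7.11, 7.01 and 7.21 in hypoxia with vorinostat in DU145. NEFM, the medium neurofilament subunit of axons, lay at 4.32, 4.54 and 4.74 with solvent, and at 6.66, 6.36 and 7.16, then 7.06, 6.51 and 7.53. The bounds were at least 3.02-fold for CALB2 and at least 2.71-fold for NEFM. Both of these probes were on in 0 of the 12 vorinostat arrays of PC-3 and 22Rv1.

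ENPP2, or autotaxin, is the secreted enzyme that makes lysophosphatidic acid. On the solvent arrays it lay at 4.35, 4.49 and 5.03, and in DU145 it reached 6.16, 6.11 and 6.75 in normoxia and 6.91, 5.89 and 6.78 in hypoxia, at least 1.98-fold above background. A second ENPP2 probe met the rule as well, with a mean of 4.44 on the DU145 solvent arrays and 6.22 on the vorinostat arrays. PPP4R4, a regulatory subunit of protein phosphatase 4, lay at 4.28, 4.39 and 5.00 with solvent, and at 6.57, 6.46 and 6.96, then 6.37, 6.39 and 6.68, at least 2.19-fold above background. Another PPP4R4 probe was on in 5 of 6 solvent arrays of DU145.

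KLRC2 and CLDN10 encode membrane proteins. KLRC2, an activating receptor of natural killer cells with close paralogues in the same locus, lay at 4.28, 4.34 and 4.47 with solvent, and at 5.66, 5.59 and 5.73 in normoxia and 6.03, 6.04 and 6.54 in hypoxia in DU145, at least 1.40-fold. CLDN10, a claudin of tight junctions, lay at 4.27, 4.43 and 4.62 with solvent, and at 6.17, 5.57 and 5.60, then 5.71, 5.90 and 5.66, at least 1.25-fold. In both genes every vorinostat array of DU145 lay above every solvent array, as for all members in the lines where they met the rule, which the rule favours. Over all tested probes 12.6% in DU145, 5.76% in PC-3 and 10.9% in 22Rv1 had all 6 vorinostat arrays above all 6 solvent arrays of the line.

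The remaining genes that met the rule in DU145 alone were RSPH14, OOEP, ARMC12 and PALM2. RSPH14, a radial spoke protein of motile cilia, lay at 4.24, 4.50 and 4.75 with solvent, and at 6.06, 6.02 and 6.13 in normoxia and 6.03, 5.91 and 6.31 in hypoxia, at least 1.55-fold, and it was also on in 2 of 6 vorinostat arrays of PC-3. OOEP, an oocyte protein of the subcortical maternal complex, lay at 4.28, 4.40 and 4.94, and at 5.53, 5.65 and 6.15, then 5.65, 5.45 and 5.87, at least 1.21-fold. ARMC12, known in mouse for the sperm mitochondrial sheath, lay at 4.31, 4.61 and 4.82, and at 5.54, 5.74 and 5.44, then 5.51, 5.72 and 6.04, at least 1.16-fold. Its 3 hypoxia arrays of 22Rv1 with vorinostat were also on, at 5.23, 5.36 and 5.52, while the 3 in normoxia were not. PALM2, a paralemmin now annotated within PALM2AKAP2, lay at 4.30, 4.51 and 4.73, and at 5.64, 5.99 and 5.53, then 5.41, 5.65 and 5.80, at least 1.17-fold.

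**Figure D3:**
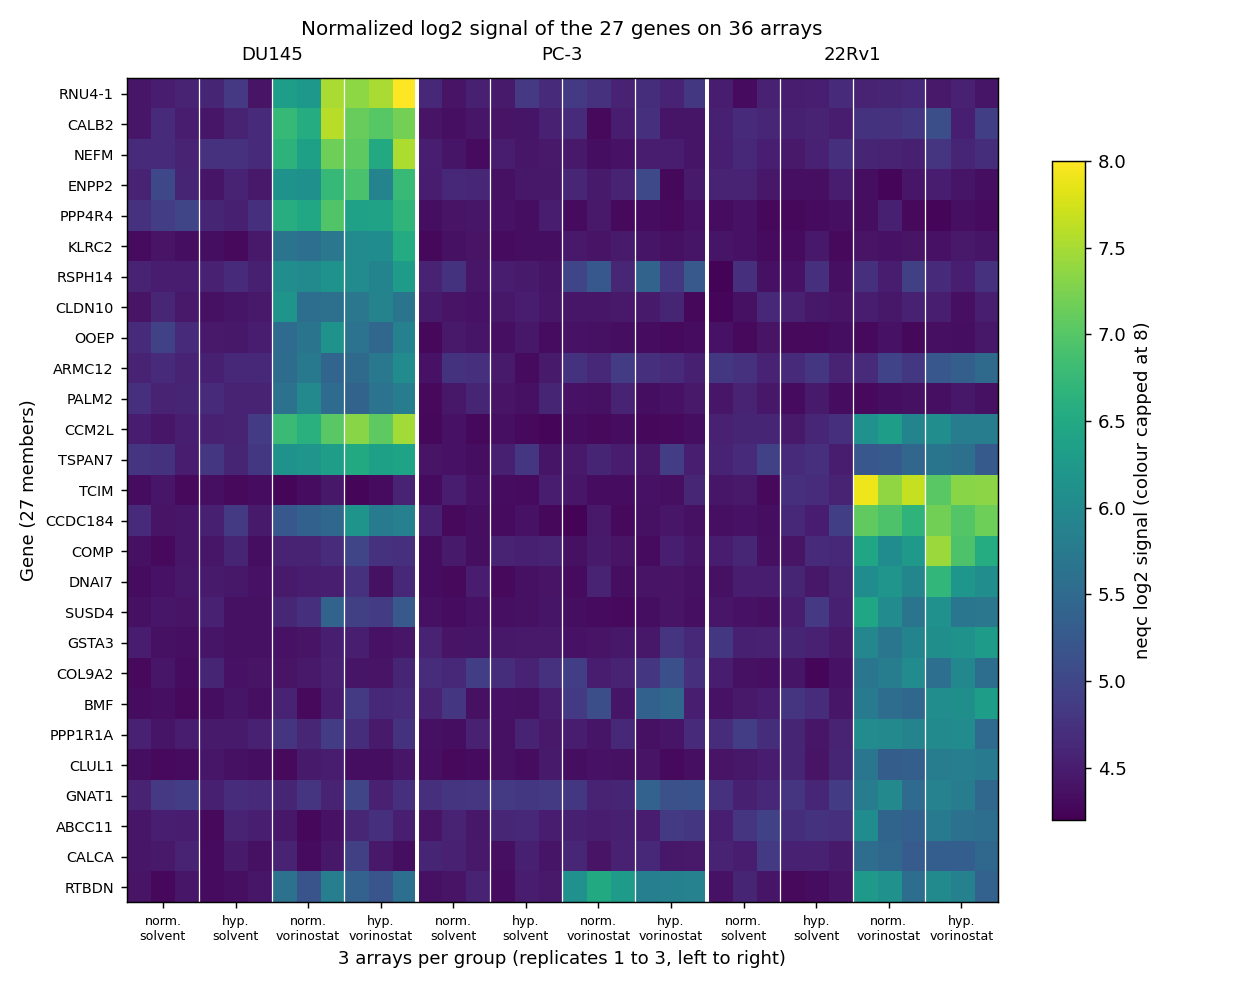
Normalized log2 signal (colour, capped at 8) of the 27 genes (rows) on the 36 arrays (columns, 3 per group, with line, oxygen level and drug marked). The DU145 genes fill the upper rows, the 22Rv1 genes the lower ones, and RTBDN in the bottom row stands out in PC-3; none of the chosen probes was on in a solvent array.

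CCM2L and TSPAN7 were on in both DU145 and 22Rv1. CCM2L, a paralogue of the cerebral cavernous malformation scaffold protein CCM2, lay at 4.27, 4.50 and 4.87 with solvent. With vorinostat it lay at 6.80, 6.62 and 7.02 in normoxia and 7.32, 7.05 and 7.48 in hypoxia in DU145, and at 6.13, 6.32 and 5.91, then 6.06, 5.80 and 5.80 in 22Rv1, with bounds of at least 3.04-fold and at least 1.65-fold. The 6 vorinostat arrays of PC-3 stayed between 4.29 and 4.34. TSPAN7, a tetraspanin of the cell membrane, lay at 4.34, 4.62 and 4.94 with solvent. Its values were 6.16, 6.18 and 6.31, then 6.51, 6.36 and 6.40 in DU145 and 5.24, 5.28 and 5.46, then 5.68, 5.60 and 5.27 in 22Rv1, at least 1.84-fold and at least 1.10-fold. For both genes all DU145 arrays with drug lay above all 22Rv1 arrays with drug. The share of all probes that separate these lines in this way was not counted, so this is a description only.

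RTBDN was the one gene of PC-3. It lay at 4.28, 4.40 and 4.59 on the solvent arrays, at 6.12, 6.50 and 6.31 in normoxia and 5.85, 5.87 and 5.88 in hypoxia with vorinostat in PC-3, and at 6.24, 6.13 and 5.57, then 6.01, 5.87 and 5.40 in 22Rv1. The bounds were at least 1.74-fold in PC-3 and at least 1.50-fold in 22Rv1. In DU145 RTBDN was on in 3 of 6 vorinostat arrays, with values between 5.19 and 5.82, so the drug arrays of all 3 lines lay above the highest solvent value. This gene came closest to a pattern common to the 3 lines.

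In 22Rv1, the bounds ran from at least 1.09-fold (CALCA) to at least 4.46-fold (TCIM). TCIM (chr8:40153482-40155310) encodes a small regulator reported to act in Wnt signalling. It lay at 4.29, 4.37 and 4.71 with solvent, and at 7.90, 7.37 and 7.67 in normoxia and 7.03, 7.32 and 7.34 in hypoxia in 22Rv1. In DU145 and PC-3 its 12 vorinostat arrays stayed between 4.26 and 4.61. CCDC184 lay at 4.28, 4.42 and 4.90 with solvent, and at 7.08, 6.94 and 6.67, then 7.20, 6.98 and 7.16 in 22Rv1, at least 3.30-fold. Unlike TCIM it was partly on in DU145, in 4 of 6 vorinostat arrays, at 5.24, 5.39 and 5.48 in normoxia and 6.16, 5.78 and 5.86 in hypoxia.

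COMP and COL9A2 encode proteins of cartilage matrix. COMP lay at 4.29, 4.46 and 4.66 with solvent, and at 6.44, 6.04 and 6.26 in normoxia and 7.42, 6.93 and 6.56 in hypoxia in 22Rv1, at least 2.51-fold. COL9A2, a chain of collagen IX, lay at 4.27, 4.42 and 4.91, and at 5.69, 5.80 and 6.04, then 5.59, 5.98 and 5.57, at least 1.41-fold. Neither was on in any vorinostat array of the other lines. Other secreted or surface products were those of SUSD4 and CALCA. SUSD4 lay at 4.32, 4.38 and 4.83 with solvent, and at 6.45, 6.03 and 5.66, then 6.12, 5.69 and 5.71, at least 1.58-fold, and it was on in 1 of 6 vorinostat arrays of DU145. CALCA, the gene of calcitonin and of calcitonin gene-related peptide, lay at 4.30, 4.49 and 4.85, and at 5.56, 5.48 and 5.28, then 5.33, 5.34 and 5.47, at least 1.09-fold.

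Intracellular signalling and cell death proteins of the 22Rv1 set were BMF, PPP1R1A and GNAT1. BMF lay at 4.29, 4.40 and 4.80 with solvent, and at 5.79, 5.56 and 5.47 in normoxia and 6.06, 6.09 and 6.32 in hypoxia, at least 1.52-fold. It was also on in 1 of 6 vorinostat arrays of PC-3. PPP1R1A, an inhibitor of protein phosphatase 1, lay at 4.35, 4.52 and 4.89, and at 6.03, 5.99 and 5.90, then 6.02, 6.03 and 5.53, at least 1.55-fold. GNAT1, the alpha subunit of rod transducin, lay at 4.53, 4.76 and 4.88, and at 5.80, 5.99 and 5.54, then 5.88, 5.80 and 5.47, at least 1.38-fold. These 3 genes kept their drug arrays in 22Rv1 at least 0.62 log2 units above the highest solvent array of that line.

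The other 4 genes that met the rule in 22Rv1 alone were DNAI7, GSTA3, CLUL1 and ABCC11. DNAI7, an intermediate chain of ciliary dynein, lay at 4.29, 4.42 and 4.59 with solvent, and at 6.04, 6.18 and 5.94 in normoxia and 6.71, 6.20 and 6.07 in hypoxia, at least 1.88-fold. GSTA3 lay at 4.36, 4.46 and 4.81, and at 5.96, 5.70 and 5.91, then 6.09, 6.15 and 6.29, at least 1.67-fold. CLUL1, a clusterin-like protein of photoreceptors, lay at 4.30, 4.37 and 4.59, and at 5.70, 5.33 and 5.35, then 5.81, 5.83 and 5.78, at least 1.27-fold. Hypoxia values lay above normoxia values on every array for GSTA3 and CLUL1. ABCC11 lay at 4.30, 4.54 and 4.94, and at 6.05, 5.42 and 5.37, then 5.76, 5.62 and 5.57, at least 1.27-fold.

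Counted per array by the chosen probes, 0 of the 27 genes were on in each of the 18 solvent arrays. On the DU145 arrays with vorinostat 14, 13 and 16 were on in normoxia and 14, 14 and 15 in hypoxia. On those of 22Rv1 16, 16 and 16 were on in normoxia and 17, 17 and 17 in hypoxia, and on those of PC-3 between 1 and 2.

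The thresholds pass close to some genes. ABCC11, ENPP2 and PPP4R4 had a lowest solvent detection p-value of 0.05065, just inside the rule, while BCAN (0.04545), FEZ1 (0.04156) and another probe of RTBDN (0.04675) fell just outside it. On the drug side PALM2 had a highest p-value of 0.009091 and CLDN10 and OOEP of 0.007792, while GSTA2, STMN4 and WFDC2 stood at 0.01039 in their best line. Counted by probe, 17 genes were on in a line and silent on 17 of 18 solvent arrays, among them RTBDN through its other probe. By the same count 22 silent genes were on in 5 of 6 vorinostat arrays of a line at best, among them CALCA through another probe. At the other end, 8918 of the 9227 silent probes were on in no vorinostat array.

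Other probes of the same genes were checked, 29 probes for 17 of the 27 genes, and they did not all follow the chosen probe. For 9 genes another probe was on in at least 1 solvent array (BMF, CALB2, CALCA, CCDC184, CLUL1, GNAT1, OOEP, PPP4R4 and TSPAN7), so the silence of these genes holds for the chosen probe. A second PPP4R4 probe was on in 5 of 6 solvent arrays of DU145 and averaged 5.77 on them and 7.32 with vorinostat. Another probe of OOEP in DU145, and of CALCA and CLUL1 in 22Rv1, was on in 3 of 6 solvent arrays of that line. A second GNAT1 probe was on in 1 of 18 solvent arrays and averaged 5.08 on the solvent and 7.62 on the vorinostat arrays of 22Rv1. A second TSPAN7 probe, on in 2 solvent arrays, averaged 5.20 and 7.20 in DU145 and 4.92 and 6.34 in 22Rv1. A second RTBDN probe averaged 4.53 and 6.11 in PC-3 and 4.67 and 6.63 in 22Rv1. These second probes differed in the same direction as the chosen ones.

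In CALB2 they did not: the other probe averaged 5.26 on the solvent and 5.27 on the vorinostat arrays of DU145, and it was on in 8 of 18 solvent arrays. A second CLDN10 probe averaged 4.79 and 6.72 in DU145, whereas a further probe averaged 4.36 and 4.35 and was on in no array. The other probes of KLRC2, PALM2 and SUSD4, and both other probes of ABCC11, were also on in no vorinostat array of any line. The same held for some, but not all, of the other probes of BMF, CCDC184 and CLUL1. The positions of the probes within the transcripts were not used here.

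The 2 oxygen levels were treated alike by the rule, so the difference between them on the vorinostat arrays could be tested. Because the rule asked for on at both levels, genes on at only 1 level in a line are left out of the counts for that line. In DU145 RNU4-1, KLRC2 and CCM2L were higher in hypoxia, 3 of the 13 genes on in that line (limma, adjusted p under 0.05 over 16501 probes), and 0 were lower. Of all tested probes 7.9% were called in DU145, 3.95% in each direction. In 22Rv1 COMP, BMF, CLUL1 and GSTA3 were higher and TCIM was lower, 5 of 16 genes, where 20.1% of all probes were called, 8.64% higher and 11.5% lower. RTBDN in PC-3 was not called, where 13.3% of probes were. The median difference was 0.18 log2 units over the 13 DU145 genes and -0.01 over the 16 of 22Rv1, beside 0.00 and -0.03 over all tested probes.

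RNU4-1 had the largest difference in DU145, 0.99 ± 0.21 log2 units (SE, 3 arrays per group, limma adjusted p = 0.00238). Its groups still overlapped, because the third normoxia array (7.52) reached the hypoxia values of 7.35 to 8.18. KLRC2 differed by 0.54 ± 0.10 (limma adjusted p = 3.7e-04) and its groups did not overlap. CCM2L differed by 0.47 ± 0.11 (limma adjusted p = 0.00824), also without overlap. Without the second normoxia array the adjusted p of CCM2L was 0.0853, and without the third hypoxia array it was 0.0814, over a range of 0.00194 to 0.0853 in all alternatives. Without the third normoxia array CALB2 (0.46, limma adjusted p = 0.0298) and NEFM (0.52, 0.0374) were called too, and NEFM also without the second hypoxia array (0.57, 0.0111). Fitted on the 12 DU145 arrays alone, RNU4-1 (limma adjusted p = 0.0886) and CCM2L (0.0814) were not called, and CCM2L was not called after median scaling (0.0513).

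In 22Rv1 COMP had the largest difference, 0.72 ± 0.14 log2 units (limma adjusted p = 2.4e-04), with all 3 hypoxia arrays above all 3 normoxia arrays. BMF differed by 0.55 ± 0.17 (0.0213), CLUL1 by 0.35 ± 0.09 (0.00427) and GSTA3 by 0.32 ± 0.09 (0.0138), given as limma adjusted p-values. TCIM was lower in hypoxia, with a difference of -0.42 ± 0.11 (limma adjusted p = 0.00791). In these 5 genes the oxygen groups did not overlap, as was the case for 42% of all tested probes in 22Rv1, 23.9% in DU145 and 24.7% in PC-3.

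Normalization and single arrays carry some of these calls. With cyclic loess and with median scaling BMF (limma adjusted p = 0.0543 and 0.0643), CLUL1 (0.113 and 0.156) and GSTA3 (0.205 and 0.331) were not called, and with the authors' processed values CLUL1 (0.121) and GSTA3 (0.0721) were not. BMF was not called without normoxia array 2, normoxia array 3 or hypoxia array 3 of 22Rv1 (limma adjusted p = 0.0677, 0.0929 and 0.0956), and GSTA3 not without the second normoxia or the third hypoxia array (0.115 and 0.0803). TCIM was not called without the first normoxia array (0.0915) or the first hypoxia array (0.081). DNAI7 was called without the third hypoxia array (0.40 log2 units, limma adjusted p = 0.0187). RTBDN in PC-3 differed by -0.44 ± 0.16 (limma adjusted p = 0.0554), with all hypoxia arrays below all normoxia arrays, and it was called without the first normoxia array (0.0452), with cyclic loess (0.0296), with median scaling (0.0243) and with the replicate number as a block (0.017). COMP, CLUL1, RNU4-1 and KLRC2 kept their calls whichever array of their line was left out.

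**Figure D4:**
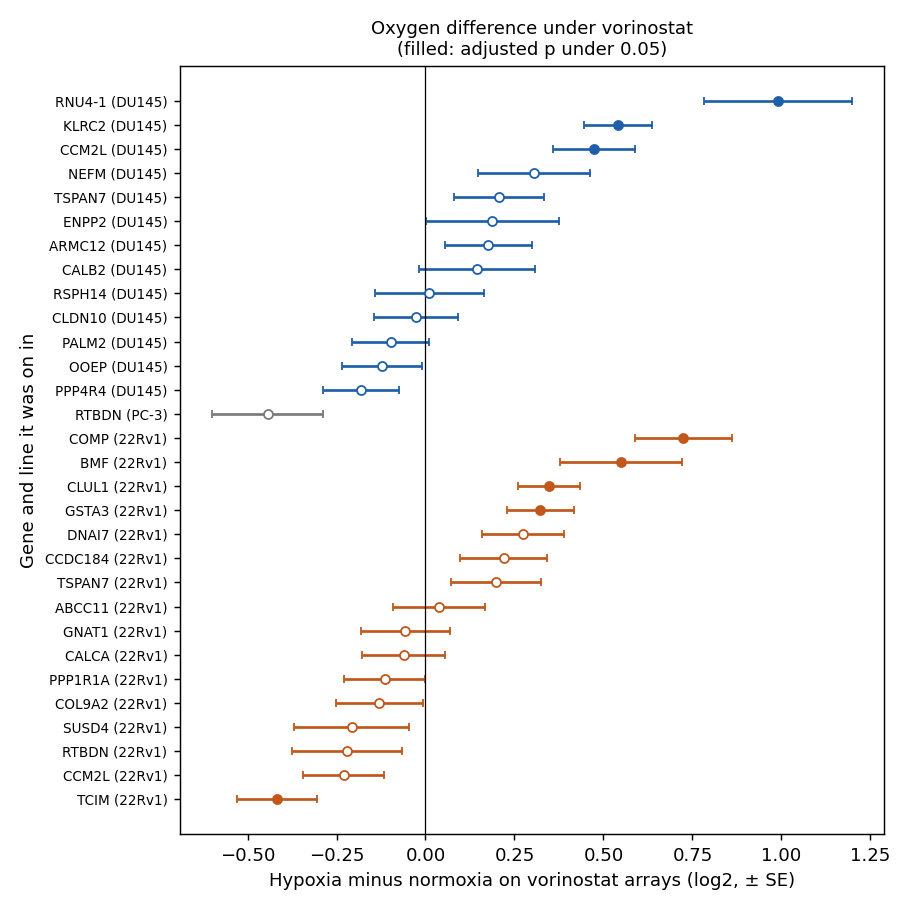
Hypoxia minus normoxia on the vorinostat arrays (horizontal axis, log2 units, bars are standard errors, 3 arrays per group) for each gene in each line where it was on (vertical axis). Filled points passed an adjusted p of 0.05: 3 higher in DU145, 4 higher and TCIM lower in 22Rv1, and none in PC-3.

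Whether the drug effect itself differed between oxygen levels was tested as an interaction, which also takes in the solvent arrays. In 22Rv1 1 of 16 genes passed, TCIM, whose difference between drug and solvent was smaller in hypoxia (hypoxia minus normoxia -0.67 ± 0.16 log2 units, limma adjusted p = 0.0392), where 0.6% of all tested probes were called. That call was lost without 9 single arrays of 22Rv1 in turn (limma adjusted p = 0.0532 to 0.178), and the solvent values in it lie below background. It was also lost with the authors' processed values (0.0973) and in the arrays of 22Rv1 alone (0.157). In DU145 0 of 13 genes passed by limma, where 0.515% of probes were called, and 2 had an unadjusted p under 0.05. Closest was KLRC2, at 0.53 ± 0.13 (limma adjusted p = 0.0646). KLRC2 was called without the first or the second hypoxia vorinostat array (0.0381 and 0.0295), and RNU4-1 without the third normoxia vorinostat array (1.30 log2 units, 0.00316). In 22Rv1 COMP was called without the third hypoxia vorinostat array (0.86, 0.0114), and in PC-3 RTBDN was not called (-0.43 ± 0.22, 0.644), where 0.0909% of probes were.

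For the 3 genes on in 2 lines, the oxygen difference under vorinostat was compared between those lines, a test chosen after seeing the data. CCM2L had an oxygen difference of 0.47 in DU145 and of -0.23 in 22Rv1, and the difference between the lines was 0.70 ± 0.16 log2 units (limma adjusted p = 0.006, where 6.45% of all probes were called). TSPAN7 had differences of 0.21 and 0.20 in those lines (0.01 ± 0.18 between them, limma adjusted p = 0.986). RTBDN had differences of -0.44 in PC-3 and -0.22 in 22Rv1 (-0.22 ± 0.22, limma adjusted p = 0.654, where 5.08% of probes were called).

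The nearest tested gene on either side, within 500000 bases, was looked up for each member in the lines where it was on. In DU145 9 of 25 such neighbours were higher with vorinostat and 4 lower, while 27.7% and 24.5% of all genes were. Among these 9, CCN3 and NEFL were on in 0 of 6 solvent arrays and in 1 and 3 of 6 vorinostat arrays. RNU4-2 and SIRT4, also among them, are both neighbours of RNU4-1. In 22Rv1 11 of 31 were higher and 2 lower, beside 22.5% and 22% of all genes. In PC-3 MAST1 was higher and RNASEH2A lower, beside 19.5% and 19.4% of all genes. The median difference of the neighbours was 0.03 in DU145 and 0.16 log2 units in 22Rv1, beside 0.01 and 0.00 over all genes.

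Neighbours of the same gene family, or overlapping a member, are named here for that and not for their values. RNU4-2, the other U4 gene, 1190 bases from RNU4-1, averaged 5.09 with solvent and 7.97 with vorinostat in DU145 (2.88 ± 0.17, limma adjusted p = 9.55e-15) and was on in 1 of 6 and 6 of 6 arrays. SIRT4, whose annotated span contains RNU4-1, was on in 5 of 6 and 6 of 6 arrays (1.01 ± 0.11, limma adjusted p = 1.02e-08). NEFL, the light neurofilament gene beside NEFM, was on in 0 of 6 solvent and 3 of 6 vorinostat arrays of DU145 and averaged 4.72 and 5.31, so that no fold over background is given. RNU4-2 and SIRT4 were thus higher with the drug in DU145, and NEFL was above background with the drug only in part of the arrays. Other overlapping neighbours differed less. DDX43 (with OOEP, DU145) was lower (-0.34, limma adjusted p = 0.00513) and LONP2 (with ABCC11, 22Rv1) was higher (0.25, 0.00433). TYMSOS (with CLUL1, 22Rv1, -0.05) and GNAZ and RAB36 (with RSPH14, DU145, 0.13 and 0.03) were not called.

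CALCB, which encodes the second calcitonin gene-related peptide, was on in all 12 arrays of 22Rv1 and averaged 7.70 with solvent and 9.24 with vorinostat (1.54 ± 0.06, limma adjusted p = 3.4e-19). Beside GSTA3, GSTA2 was on in 0 of 6 solvent and 5 of 6 vorinostat arrays of 22Rv1 and averaged 4.63 and 5.59 (at least 1.24-fold higher, limma adjusted p = 1.3e-08), and GSTA4 was on throughout (0.62 ± 0.10, 8.9e-06). GNAI2 beside GNAT1 was higher as well (0.65 ± 0.06, 5.9e-10). DPPA5 beside OOEP was on in no array of DU145 and averaged 4.34 with and without the drug. Whether probes of such paralogues bind each other's transcripts was not tested.

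Of 8 gene lists that name classes often silent in epithelial cells, or the repressor complexes themselves, 1 held members: the list of neuronal and synaptic genes, with CALB2 and NEFM. In that list 35 of 106 tested genes were higher with vorinostat and 9 lower in DU145, 24 and 4 in PC-3, and 55 and 5 in 22Rv1. Over all genes 27.7% were higher and 24.5% lower in DU145, 19.5% and 19.4% in PC-3, and 22.5% and 22% in 22Rv1. The 4 lower genes of PC-3 became 2 without normoxia solvent array 1, normoxia vorinostat array 2 or hypoxia vorinostat array 2. They also became 2 with the authors' processed values, cyclic loess, median scaling, no filter or array weights, and 1 in the arrays of PC-3 alone. The 5 lower genes of 22Rv1 became 8 in its arrays alone. The list's median difference was 0.04, 0.06 and 0.32 log2 units, beside 0.01, 0.00 and 0.00 over all genes. In this count each gene is represented by its brightest probe, which for CALB2 is the one that did not differ. The DU145 count includes NEFM, which the rule had chosen as higher there. Here and in the lists below, a gene on in no solvent array was tested only through its vorinostat arrays, which favours a count as higher. In reverse, a gene on in no vorinostat array was tested only through its solvent arrays. Another 56 of its 172 array genes were silent on all 36 arrays.

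The germline and meiosis list had 0 members, with 50 of 79 array genes silent on all 36 arrays, and of 22 tested 6, 0 and 4 genes were higher and 2, 1 and 3 lower in DU145, PC-3 and 22Rv1. The cancer-testis list had 0 members, and of 45 tested genes 4, 2 and 17 were higher and 4, 3 and 6 lower. In DU145 7 were higher without normoxia vorinostat array 2, and 2 were lower without hypoxia vorinostat array 2 or with median scaling. The haematopoietic and immune list had 13, 7 and 11 higher and 3, 2 and 5 lower of 34, the muscle list 6, 5 and 8 higher and 3, 1 and 2 lower of 20, and the imprinted list 6, 1 and 9 higher and 4, 1 and 3 lower of 27. In PC-3 the muscle list had 0 lower genes without normoxia vorinostat array 1, and the imprinted list had 0 to 3 higher and 1 to 2 lower without single arrays, 9 of the 12 arrays of the line moving one count or the other. That muscle list also had 0 lower genes with the authors' processed values, 2 with the replicate block, and 3 higher with median scaling. The imprinted list of PC-3 had 4 higher genes with cyclic loess, and 2 higher and 2 lower with the block. In 22Rv1 it had 7 lower genes with array weights and 5 in the arrays of that line alone. These 5 lists held 0 of the 27 genes, and the shares over all genes are those given above. Of 6 tested fibroblast, endothelial and leukocyte genes 1, 3 and 1 were higher and 0, 0 and 1 lower, and in DU145 2 were higher without normoxia solvent array 1, hypoxia solvent array 1 or normoxia vorinostat array 1. In DU145 2 were also higher with median scaling or the replicate block, and in 22Rv1 2 with the block or in its arrays alone.

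Of the 33 tested genes of class I deacetylases and their corepressors, 7, 4 and 7 were higher and 11, 1 and 5 lower in DU145, PC-3 and 22Rv1, beside 27.7%, 19.5% and 22.5% of all genes higher and 24.5%, 19.4% and 22% lower. The 4 higher genes of PC-3 became 7 with cyclic loess, 1 with median scaling, and 2 in its arrays alone or without normoxia vorinostat array 1, hypoxia vorinostat array 1 or hypoxia solvent array 2. Its 1 lower gene became 2 with the replicate block or without hypoxia vorinostat array 1 or 3. In DU145 7 genes were lower with median scaling, and in 22Rv1 8 were lower with array weights or in its arrays alone. HDAC1 was higher by 1.09 ± 0.06 log2 units in DU145 (limma adjusted p = 1.82e-15), 0.15 ± 0.06 in PC-3 (0.0453) and 0.25 ± 0.06 in 22Rv1 (8.4e-04). HDAC3 differed by 0.37 ± 0.09 in DU145 (limma adjusted p = 5.0e-04), 0.18 ± 0.09 in PC-3 (0.0925) and 0.33 ± 0.09 in 22Rv1 (0.00194). HDAC2 differed by 0.11, 0.13 and -0.01, and HDAC8 by -0.15, -0.07 and 0.34, with no call in the 3 lines. These 4 are the class I deacetylases, which vorinostat inhibits as proteins.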

How the data were processed

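RNA of 36 samples was hybridised to single-colour Illumina bead arrays, which were grouped by line, oxygen level and drug from the sample titles. The deposited table without normalization holds, per the file headers, an average bead intensity on the linear scale and a detection p-value for every probe. The submitters' processing notes name BeadStudio 3.1.3.0 for the bead summaries. The filters that the authors applied are not stated in the labels or headers. A further deposited table gives processed intensities, linear judging from their range, with near-equal medians across arrays.

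The rule was applied to the deposited detection p-values. Intensities were then background corrected and quantile normalized with neqc in limma 3.58.1 (R 4.3.3, offset 16, background taken from the detection p-values), which returns log2 values. One model of 12 group means was fitted in limma to 16501 probes with 1 gene symbol and a detection p-value below 0.01 on at least 3 arrays, with Benjamini-Hochberg adjustment over all of them and a call at an adjusted p under 0.05 (29.7 degrees of freedom after moderation). Counts over genes used the brightest tested probe of each of 12360 genes. On simulated data with the spread of these arrays, 95%, 94% and 97% of changes of 1 log2 unit between oxygen levels were called in DU145, PC-3 and 22Rv1, and 27%, 43% and 43% of changes of 0.5. There 100 of 16501 probes changed by each size and all others were equal between oxygen levels. In the data 7.9%, 13.3% and 20.1% of probes were called. The adjustment depends on that share, so the simulated shares do not carry over to the tests given here. Gene symbols came from the platform annotation, and positions and start windows from RefSeq on GRCh38.p14 (26 of the 27 genes matched by gene ID and 1 by symbol). No 2 arrays were identical (0 pairs), and 0 columns of sample values were left unused. The 3 arrays per group limit the precision.

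The members and the gene lists were chosen with earlier results of these data known. Named were the genes on in all lines, the 10 largest differences per line, the called oxygen differences, list members, genes close to each other, genes next to the thresholds and genes with another probe on in a solvent array; the others are given for completeness.

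In PC-3 15 of 18 same-numbered pairs correlated above 0.1 and in DU145 13 of 18, against 2 of 18 in 22Rv1. These were correlations of deviations from the group means, of -0.05 to 0.28 in DU145, 0.00 to 0.46 in PC-3 and 0.00 to 0.10 in 22Rv1. Their medians were 0.155 in DU145, 0.267 in PC-3 and 0.0511 in 22Rv1, beside -0.078, -0.138 and -0.0202 for pairs with different numbers. Same-numbered arrays of DU145 and PC-3 thus deviated partly together. The main model left the numbers out. A replicate block was fitted as an alternative, and the oxygen and interaction calls that it moved are given below. Alternatives were other detection thresholds, other choices of probe, 1 oxygen level alone, other normalizations, the deposited processed values, no filter, array weights, a replicate block, the arrays of a line alone and leaving out each array.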

Additional observations from a re-analysis of the deposited data

Results flagged for a closer look

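TCIM in 22Rv1 drew attention because the difference between vorinostat and solvent passed the test for a difference between the 2 oxygen levels: hypoxia minus normoxia was -0.67 log2 units (limma interaction test, adjusted p = 0.0392), with an adjusted p of 0.00231 to 0.178 over the alternatives, of which 7 of 19 kept the call. The solvent values in this test lie below background, and the oxygen difference between them was 0.25 log2 units.

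CCM2L drew attention because its oxygen difference under the drug was not the same in 2 lines: DU145 minus 22Rv1 was 0.70 log2 units (limma, adjusted p = 0.006), with an adjusted p of 0.0011 to 0.0308 over the alternatives.

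Outside the genes with a symbol, 4 of 7792 probes with no gene symbol that were silent on all 18 solvent arrays were on in all 6 vorinostat arrays of a line, 1 in DU145, 2 in PC-3 and 1 in 22Rv1, and 0 showed the opposite pattern.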

How the results depend on the processing

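The number of genes depends on the thresholds. It was 69 with on set at a detection p below 0.05 and 10 with below 0.001. It was 13 with silent set at above 0.1 and 97 with above 0.01. All 27 were among the 69 and the 97, as looser thresholds require. It was 86 from the normoxia arrays alone, 64 from the hypoxia arrays alone, 15 when the brightest probe of a gene was chosen before the rule, and 18 without genes that had another probe on in a solvent array. Leaving out 1 array in turn gave 27 to 31, and by the rule it could not give fewer than 27.

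The oxygen calls moved more. Higher in 22Rv1 were 2 genes with the authors' processed values and 1 each with cyclic loess and median scaling, where BMF, CLUL1 and GSTA3 were lost. Lower in 22Rv1 were 2 with array weights, TCIM and CCM2L. RTBDN in PC-3 was called lower, 1 gene, with cyclic loess (adjusted p = 0.0296), median scaling (0.0243) and the replicate block (0.017). In DU145 1 gene was higher when its arrays were fitted alone, KLRC2. The interaction of TCIM was lost, leaving 0 genes, with the authors' values, the replicate block (0.0525) and the line alone. The block added 1 interaction call in DU145 (KLRC2, 0.0332), and array weights gave 2 higher in 22Rv1 (COMP and GSTA3); the cause of these moves was not tested. Without single arrays, oxygen calls ran from 2 to 5 higher in DU145, 2 to 4 higher and 0 to 1 lower in 22Rv1 and 0 to 1 lower in PC-3, and interaction calls from 0 to 1 higher in DU145 and in 22Rv1 and 0 to 1 lower in 22Rv1.

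With no filter on dim probes, 14.2% of tested probes were higher and 13.2% lower with vorinostat in DU145, 9.91% and 10.1% in PC-3, and 11.7% and 11.6% in 22Rv1, against 25.6% and 24.6%, 18.3% and 18.8%, and 21.1% and 21.4% with it; more probes are tested without it. Signals near background limit what can be said of levels without drug.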
